A study of Mus musculus with 4 samples.

Results

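The genes of intraflagellar transport (IFT) and of the BBSome were examined in testis RNA of mice mutant for Lrrc8a (MUT) and of wild-type mice (WT). Members were taken by name from the deposited expression table: every symbol made of Ift or Bbs and a number, plus 15 subunits or partners with other names, from Dync2h1 to Lztfl1. This gave 37 of the 24420 symbols in the table, and none of the names sought was missing from it. By their textbook roles, 6 belong to IFT-A, 11 to the IFT-B1 core, 6 to the peripheral IFT-B2 module, 2 to the dynein-2 motor, 7 to the BBSome, 3 to the chaperonin-like BBS proteins that assemble it, and 2 are regulators (Arl6 and Lztfl1). The series holds 4 libraries, MUT 1, MUT 2, WT 1 and WT 2, all from freshly isolated testis of the FVB strain and with no other allele or agent named. Lrrc8a makes an essential part of the anion channel that opens when cells swell, and the series concerns a deficit of that channel's activity in male infertility. The labels give neither the kind of mutation nor the age of the mice, and do not say that each library is a different animal. The p-values therefore reflect library-to-library spread, in part borrowed from other genes, and that spread may be technical only.

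IFT is the traffic of protein trains along the microtubules of a growing cilium or flagellum. Kinesin-2 motors carry IFT-B trains outward, and dynein-2 returns them with IFT-A, while the BBSome is an adaptor that moves membrane proteins in and out of the cilium. In the testis the sperm tail is built by spermatids, and mouse mutants of several IFT genes make sperm with short or malformed tails. Many genes of this machinery are known targets of the RFX transcription factors, which bind a promoter sequence called the X-box.

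The X-box is shown first, as a sequence feature that the choice of the genes did not use. RefSeq promoters on GRCm38.p6, each 250 bases before to 50 after a gene start, were at hand for 32 of the 37 genes, as 33 windows. Ift81, Ift80, Ift122, Dync2li1 and Ttc30b were not matched. The pattern GTNNCC, any 2 bases, GGNNAC, in which N is any base and which is its own reverse complement, was found in 7 of the 33 windows (21.2%), against 1.88% of all 32851 windows and 2.46% of the 14656 windows of other tested genes. The 8 matches, 2 of them in Ift22, are printed 5′ to 3′ on the gene's strand with 8 bases on either side, and the capitals mark the match.
Bbs7: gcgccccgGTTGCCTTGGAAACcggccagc
Ttc26: ccggcggcGTTGCCGTGGAAACggagctcg
Ift57: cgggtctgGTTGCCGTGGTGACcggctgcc
Ift22, upstream match: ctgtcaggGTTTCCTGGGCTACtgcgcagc
Ift22, downstream match: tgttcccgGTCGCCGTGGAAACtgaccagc
Wdr19: tttgcacgGTCTCCTGGGTGACgagaacgc
Bbs4: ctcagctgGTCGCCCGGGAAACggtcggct
Bbs1: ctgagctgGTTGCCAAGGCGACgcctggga
The Bbs7 window printed lies at chr3:36613489-36613518 on the minus strand, and its match spans bases 121 to 108 before the start. The matches of Ttc26 (chr6:38381483-38381512) and the downstream one of Ift22 (chr5:136908109-136908138) both lie 33 to 20 bases before the start, on the plus strand. Those of Wdr19 (chr5:65199654-65199683) and Ift57 (chr16:49699199-49699228) lie 34 to 21 and 87 to 74 bases before it. In Bbs4 (chr9:59353464-59353493) and Bbs1 (chr19:4906605-4906634), both on the minus strand, the match lies past the start, at bases 24 to 37 and 2 to 15 of the transcript. The half-site GTTGCCA, searched on both strands, was in 8 of the 33 windows (24.2%) against 4.38% of all windows. It was found in Bbs1, where it overlaps the longer match, and in Dync2h1, Ift27, Ift88, Lztfl1, Traf3ip1, Ttc26 and Wdr35. A match describes letters in the window, not a bound site. Rfx2 and Rfx3, members of the RFX family, were measured at 562 and 613 CPM in MUT and 617 and 568 CPM in WT for Rfx2, and at 54.0 and 54.2 CPM in MUT and 52.5 and 53.3 CPM in WT for Rfx3. CPM are reads scaled to the size of a library, and neither RFX gene passed the test used below (limma adjusted p = 0.950 and 0.882).

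The libraries held between 40426400 and 68192776 reads assigned to genes, and every member had at least 150 reads in each library. Lrrc8a itself was at 13.5 and 15.9 CPM in MUT and 18.2 and 17.1 CPM in WT, and its log2 fold change of -0.26 (SE 0.0998, limma adjusted p = 0.218) was not called. The labels call the cells germ cells, and germ cell markers dominated: spermatocyte markers summed to 5403 to 5666 CPM and elongating spermatid markers to 11597 to 13255 CPM over the 4 libraries. Somatic markers were present too, as in whole tissue. Leydig cell markers summed to 1051 and 1087 CPM in MUT and 890.3 to 909.8 CPM in WT. Sertoli cell markers summed to 152.5 and 147.3 CPM in MUT and 135.9 and 139.2 CPM in WT. Of the Leydig markers 4 were higher in MUT and 1 lower, and Cyp17a1 was called (0.28, limma adjusted p = 0.0361). Of the spermatogonia markers 4 were higher and 1 lower, and Kit was called (0.46, limma adjusted p = 0.0329). All 4 peritubular myoid markers were lower in MUT, with 0 called. Cilia of the efferent ducts, next to the testis, are another possible source of IFT transcripts. Markers listed for their multiciliated cells were mixed, summing to 388 and 415 CPM in MUT and 403 and 347 CPM in WT. Foxj1 (129 to 154 CPM), Cfap126 (209 to 265 CPM) and Ccno (6.34 to 9.09 CPM) were expressed, of which Foxj1 is also a gene of spermatids, while the multiciliated cell regulators Gmnc and Mcidas were at 0.297 to 0.523 and 0.0489 to 0.178 CPM. The 5 markers of epididymis and efferent duct summed to 1.58 and 1.71 CPM in MUT and 1.47 and 1.21 CPM in WT, mostly from Aqp1 (0.824 to 1.34 CPM). Defb41 and Slc9a3 were detected in every library at 0.0733 to 0.369 CPM, and Lcn8 and Lcn5 were at or below 0.0615 CPM, where 3 reads are worth 0.0445 to 0.0733 CPM. The part of such cells in the levels of the 37 genes was not tested.

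All 37 genes passed the filter on low values, which asked for 1 CPM or more in 2 or more libraries. Levels of different genes are compared per kilobase of annotated exon, since longer transcripts give more reads. On this scale the genes had a median of 15.0 CPM per kb over the 4 libraries, against 4.60 CPM per kb for all 15249 tested genes with a length, and 32 of 37 lay above that median. The highest levels were those of Ift172, the largest IFT-B subunit, at 83.5 CPM per kb, Ift140 of the IFT-A core at 83.2 CPM per kb, and Ift74 of the IFT-B core at 79.7 CPM per kb. The next was Ift43, a small IFT-A subunit, at 53.1 CPM per kb. Over the libraries Ift172 ranged from 79.1 to 87.5 CPM per kb, which overlapped both Ift140 (81.3 to 84.7) and Ift74 (78.9 to 80.2), while Ift140 and Ift74 did not overlap each other. The lowest were Ttc30b at 1.27 CPM per kb, Mkks at 1.73 and Bbs12 at 2.02. The order depends on the length used: per kb of the longest annotated transcript Ift43 came first, at 105 CPM per kb, followed by Ift172, Ift140 and Ift74 at 102, 99.9 and 99.0.

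**Figure D1:**
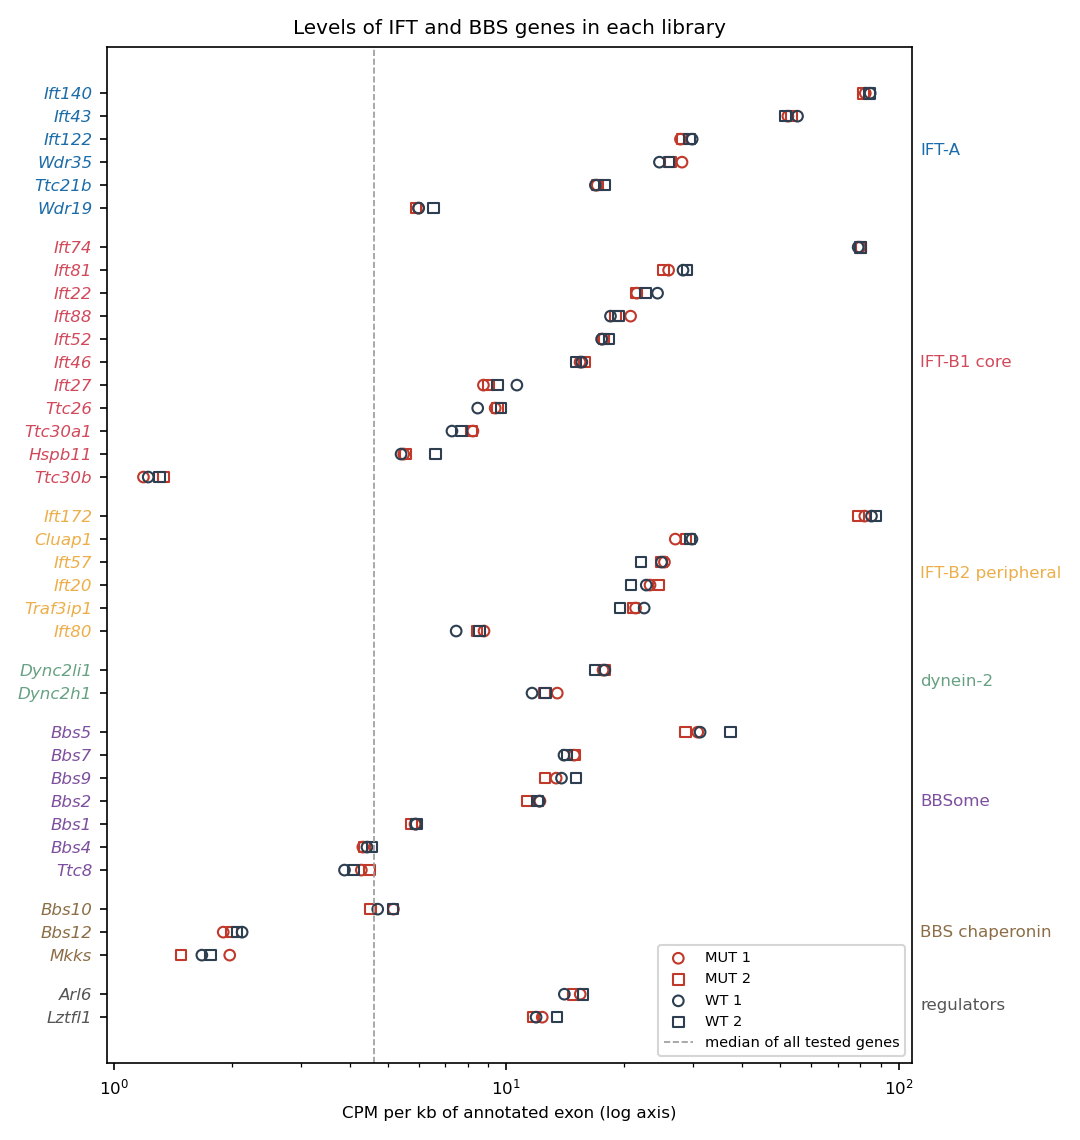
Level of each gene in each library, as CPM per kb of annotated exon on a log axis, grouped by complex and ordered by mean within it; red marks are MUT, dark marks WT, circles library 1 and squares library 2. Within a gene the 4 libraries lie close together, while genes of the IFT-B1 core spread 63.0-fold, or 13.8-fold without Ttc30b, whose level is uncertain, and the dashed line marks the median of all tested genes, 4.60 CPM per kb.

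Subunits of 1 complex were not at equal transcript levels. In IFT-A, Ift140 (83.2 CPM per kb), Ift43 (53.1), Ift122 (28.8) and Wdr35 (26.2) stood above Ttc21b (17.2) and Wdr19 (6.09), a 13.7-fold span. This order and span depend on the length used. Per kb of the longest annotated transcript Ift43 was at 105 CPM per kb, Ift122 at 66.8 and Wdr19 at 10.9. Over the BBSome the span was 7.65-fold, from Bbs5, a lipid-binding subunit, at 32.0 CPM per kb to Ttc8, a repeat-rich subunit also called BBS8, at 4.18. The chaperonin-like genes Bbs10, Bbs12 and Mkks were the lowest class, with a median of 2.02 CPM per kb, below that of all tested genes. Dynein-2 was near 15.1 CPM per kb, with its heavy chain gene Dync2h1 at 12.6 and its light intermediate chain gene Dync2li1 at 17.5.

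Partners that bind each other directly in the trains or in the BBSome were set side by side as the ratio of their levels per kb within each library, a measure that library scaling does not touch. These pairs were chosen after the values were seen, and the share of other gene pairs whose ratios lie apart was not counted. Of single tested genes, 45.6% had groups that lay apart. Ift74 and Ift81, which together bind tubulin cargo, stood at a ratio of 3.07 and 3.18 in MUT and 2.79 and 2.77 in WT, so the groups did not overlap. Cluap1 over Ift57 was 1.07 and 1.16 in MUT and 1.195 and 1.334 in WT. Ift20, the subunit that also sits at the Golgi, over Traf3ip1 was 1.09 and 1.16 in MUT and 1.012 and 1.066 in WT. Bbs2 over Bbs7 was 0.818 and 0.761 in MUT and 0.865 and 0.840 in WT. Hspb11 (IFT25) over Ift27, the small GTPase of the train, was 0.626 and 0.614 in MUT and 0.507 and 0.696 in WT, and these overlapped. The ratios depend on the length used: per kb of the longest transcript the mean over libraries was 1.85 in place of 2.95 for Ift74 over Ift81, and 0.442 in place of 0.821 for Bbs2 over Bbs7. With 2 libraries on each side the smallest two-sided p of an exact permutation test is 0.333, so the ratios were not tested.

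The paralogs of the Ttc30 family, which encode the IFT70 subunit, lie in a row on the minus strand of chromosome 2 (GRCm38): Ttc30b at 75935849 to 75938585, Ttc30a2 at 75975740 to 75978170 and Ttc30a1 at 75978247 to 75981967. Ttc30a2 is not among the 37 genes and is given here as their near copy. It was by far the most abundant, at 45.3 and 51.5 CPM per kb in MUT and 50.5 and 51.6 in WT. Ttc30a1 was at 8.23 and 8.17 CPM per kb in MUT and 7.28 and 7.71 in WT, and Ttc30b at 1.19 and 1.34 in MUT and 1.22 and 1.31 in WT. The longest reading frames of Ttc30a1 and Ttc30a2, 1995 nt each, are 95.1% identical with a shared run of 460 nt, and that of Ttc30b is 94.8% identical to Ttc30a1. Reads from shared stretches may have been dropped or assigned to another copy by the counting, so these 3 levels are uncertain.

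The design asks which genes differ between MUT and WT testis. No IFT or BBS gene was called different: of 37 tested, 0 were higher and 0 lower at a limma adjusted p under 0.05 over all genes, where 0.482% of all 15364 tested genes were called higher and 0.267% lower (0.749% in all). At an unadjusted p under 0.05 there were 3, Ift81, Bbs5 and Bbs9, all lower in MUT, against 14.7% of all tested genes in either direction and 6.98% lower. DESeq2 and edgeR, run on reads recovered from the CPM, called 0 of the 37 as well, beside 1.08% and 0.755% of all tested genes. At an unadjusted p under 0.05 these tests had 2 and 4 of the 37, beside 1542 genes (10%) and 14.8% of all tested genes. In bulk tissue, fewer cells of a type and less RNA per cell cannot be told apart, and CPM are shares of each library.

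The size of any difference between these libraries was estimated with an interval for each gene. The intervals rest on 2 libraries per genotype, which may not be different animals, and on the main fit. In that fit the variance of each gene was drawn toward a trend with expression level over all tested genes. The width of an interval therefore follows in large part from genes of similar level, not from the gene's own libraries alone. The log2 fold changes, MUT minus WT on the log2(CPM + 0.5) scale, ran from -0.20 (Bbs5) to 0.14 (Ttc8). Over the 37 genes the 95% intervals reached no lower than -0.37 and no higher than 0.33, which corresponds to folds of 0.772 and 1.26. These intervals are each for a single gene. The median SE was 0.0742, against 0.0948 for all tested genes. Within 0.2 of a log2 fold change of 0 lay 36 of 37 genes (97.3%), beside 82.3% of all tested genes, which include many weaker and noisier ones. The median log2 fold change was -0.02, with 15 genes above 0 and 22 below, beside -0.0016 for all tested genes. When the recovered reads were scaled to their plain totals, the split turned to 22 above and 15 below and the median to 0.01, while that of all genes moved to 0.03.

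**Figure D2:**
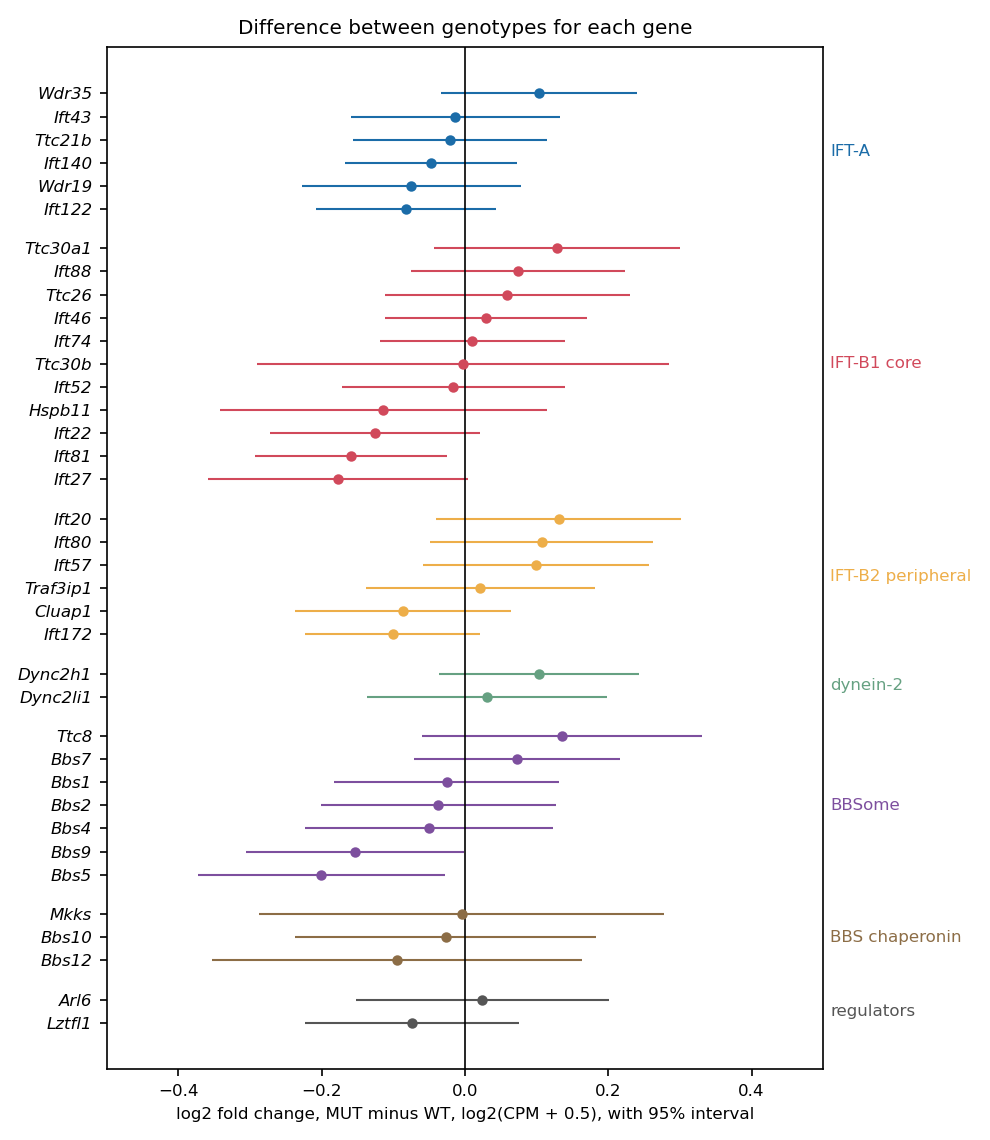
Log2 fold change of each gene, MUT minus WT, with its 95% interval from the limma fit, grouped by complex; the vertical line marks 0. The points lie between -0.20 (Bbs5) and 0.14 (Ttc8), and 3 intervals, those of Ift81, Bbs5 and Bbs9, leave out 0 before adjustment over all genes.

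**Figure D3:**
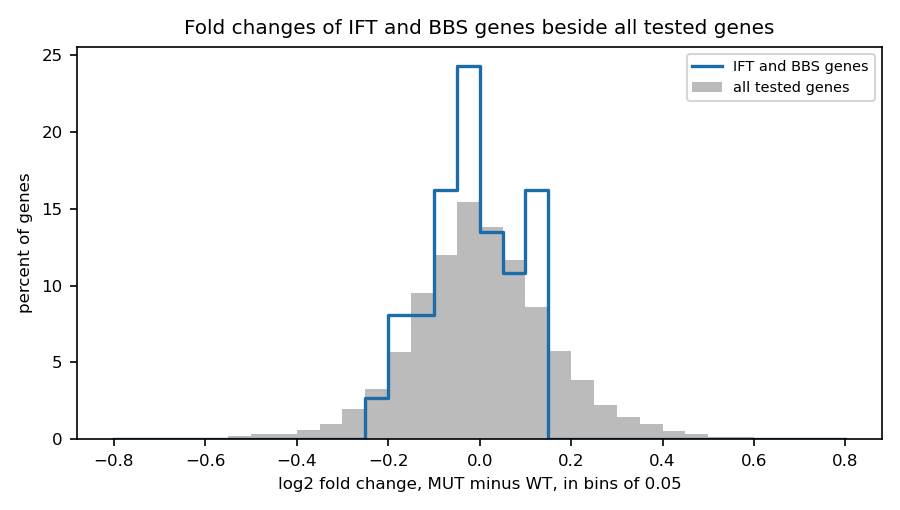
Percent of genes in each bin of log2 fold change, 0.05 wide, for the IFT and BBS genes (line) and all tested genes (grey bars). The 37 genes lie within the central part of the distribution, with none beyond 0.3 in either direction.

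Differences between single libraries were set beside the difference between genotype means. Each mean covers 2 libraries and so varies less than a single library, which makes these sizes not directly comparable. For the 37 genes the median absolute log2 difference was 0.0416 between MUT 1 and MUT 2, 0.0803 between WT 1 and WT 2, and 0.0740 between the genotype means. Over all tested genes it was 0.0884, 0.101 and 0.0934 in the same order. In 19 of 37 genes the WT libraries differed by more than the genotype means did, and 24 of 37 were higher in WT 2 than in WT 1. Such counts were not made over all tested genes, so they are not read as a trait of the 37. Both MUT libraries lay below both WT libraries for 13 genes, beside 22.6% of all tested genes, and above them for 6, beside 23.0%. The groups thus lay apart for 19 genes, beside 45.6% of all tested genes. With the plain totals 9 genes lay below and 12 above, beside 16.8% and 29.1% of all tested genes.

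In the IFT-B1 core, 5 genes lay above a log2 fold change of 0 and 6 below, with a median of -0.0024. Ift81 (chromosome 5, 122550204 to 122614518), the tubulin-binding partner of Ift74, was at 152 and 147 CPM in MUT against 165 and 169 CPM in WT. Both MUT libraries were the lower, by a log2 fold change of -0.16 (SE 0.0638, limma adjusted p = 0.246). Its partner Ift74 was at 212 and 213 CPM in MUT and 210 and 212 CPM in WT, a log2 fold change of 0.01 (95% interval -0.12 to 0.14). Ift27, a Rab-like GTPase that links the trains to BBSome exit, was at 25.1 and 25.8 CPM in MUT against 30.5 and 27.3 CPM in WT (a log2 fold change of -0.18, SE 0.0863, limma adjusted p = 0.348). The groups did not overlap, though WT 1 stood well above WT 2, and the log2 fold change was -0.10 without WT 1. Ift22, another Rab-like member, was at 77.7 and 77.6 CPM in MUT and 87.7 and 81.8 CPM in WT (-0.13, and -0.08 without WT 1). Ttc30a1 went the other way, at 30.6 and 30.4 CPM in MUT and 27.1 and 28.7 CPM in WT (a log2 fold change of 0.13, limma adjusted p = 0.489), while the abundant copy Ttc30a2 was at 110 and 125 CPM in MUT and 123 and 125 CPM in WT (-0.08), with overlapping groups. For Ttc30b, at 3.26 and 3.66 CPM in MUT and 3.35 and 3.58 CPM in WT, the log2 fold change was -0.0024 (95% interval -0.29 to 0.29). The remaining core genes, Ift46, Ift52, Ift88, Ttc26 and Hspb11, had values between -0.11 (Hspb11) and 0.07 (Ift88), and in each of them the groups overlapped.

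In the peripheral IFT-B2 module, 4 genes lay above 0 and 2 below. Ift172 (chromosome 5, 31253277 to 31291116), which acts at the ciliary tip where trains turn round, was at 543 and 524 CPM in MUT and 565 and 579 CPM in WT. The MUT libraries were both lower (log2 fold change -0.10, limma adjusted p = 0.441). Ift20 was at 35.5 and 37.3 CPM in MUT against 34.7 and 31.7 CPM in WT (0.13, limma adjusted p = 0.481). MUT 1 exceeded WT 1 by less than the WT libraries differed, and the log2 fold change was 0.07 without WT 2. Ift80 was at 109 and 105 CPM in MUT against 92.7 and 106 CPM in WT (0.11), with overlapping groups, since only WT 1 was low. Its log2 fold change was 0.0094 without WT 1 and 0.21 without WT 2. Ift57 and Traf3ip1 had log2 fold changes of 0.10 and 0.02, and Cluap1, whose exons share 510 nt with the predicted gene Gm20695 on the same strand, had -0.09.

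Among IFT-A genes, 1 lay above 0 and 5 below. Wdr35, the exception, was at 204 and 191 CPM in MUT and 179 and 189 CPM in WT (a log2 fold change of 0.10, SE 0.0653, limma adjusted p = 0.484), and its log2 fold change was 0.06 without MUT 1 or without WT 1. Ift140, at 686 and 678 CPM in MUT and 706 and 704 CPM in WT, had a log2 fold change of -0.05 (95% interval -0.17 to 0.07). That value was 0.0083 after quantile normalization and -0.0965 after correction for GC content and transcript length. Ift122, Wdr19, Ttc21b and Ift43 had log2 fold changes of -0.08, -0.07, -0.02 and -0.01. On the deposited scaling the summed level of the 6 genes, with Ift140 as the largest part, was 1489 and 1472 CPM in MUT and 1507 and 1520 CPM in WT. The sum was not computed under other scalings, so its order between the groups is not read as a difference. For the retrograde motor, Dync2h1 was at 221 and 205 CPM in MUT against 190 and 206 CPM in WT, so the groups overlapped (0.10, limma adjusted p = 0.493). Its log2 fold change was 0.05 without MUT 1 or without WT 1, and -0.02 after correction for GC content and transcript length. Dync2li1 was at 33.0 and 33.3 CPM in MUT and 33.4 and 31.5 CPM in WT (0.03).

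**Figure D4:**
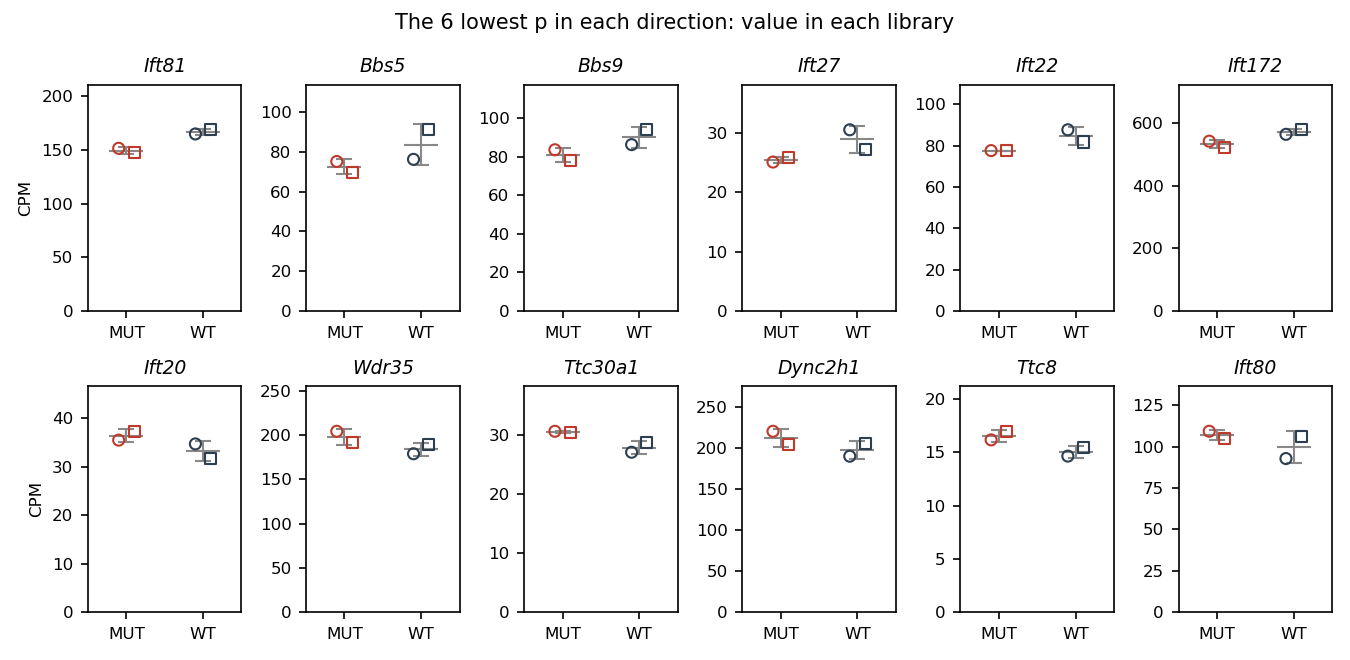
CPM in each library for the 6 genes with the smallest p in each direction, lower in MUT above and higher in MUT below, with the group mean and SD in grey (n = 2); circles are library 1, squares library 2 and every axis starts at 0. For Bbs5 the WT libraries, 76.3 and 91.2 CPM, lie farther apart than MUT 1 and WT 1, and the MUT and WT marks of Ift80 and Dync2h1 overlap.

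Of the BBSome genes, 2 lay above 0 and 5 below, with a median log2 fold change of -0.04. Bbs5 (chromosome 2, 69647171 to 69667571) had the lowest value of all 37 genes, at 75.3 and 70.0 CPM in MUT and 76.3 and 91.2 CPM in WT. MUT 1 and WT 1 were nearly level, and WT 2 stood apart. Its log2 fold change was -0.20 (SE 0.0823, limma adjusted p = 0.259), and Bbs5 was the gene whose call turned on a library. The log2 fold change was -0.33 without WT 1, which leaves a single WT library, and -0.07 without WT 2. The fit without WT 1 also called a larger share of all tested genes than the main fit, so the call is not read as a trait of Bbs5. Bbs9, a scaffold subunit, was at 83.7 and 78.4 CPM in MUT and 86.4 and 94.1 CPM in WT (-0.15, SE 0.0724, limma adjusted p = 0.333), and the log2 fold change was -0.09 without WT 2. Ttc8 had the highest value of the 37, at 16.2 and 17.0 CPM in MUT and 14.7 and 15.4 CPM in WT (0.14, SE 0.0935, limma adjusted p = 0.531). Bbs7 (0.07), Bbs1 (-0.03), Bbs2 (-0.04) and Bbs4 (-0.05) lay nearer to 0. Summed over the 7 genes, the level was 367 and 354 CPM in MUT and 365 and 391 CPM in WT, highest in WT 2.

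Chaperonin-like genes and regulators had log2 fold changes near 0, with wider intervals for the weakly expressed ones. Bbs10 was at 15.7 and 13.8 CPM in MUT and 14.4 and 15.7 CPM in WT, with a log2 fold change of -0.03 (95% interval -0.24 to 0.18). Mkks and Bbs12 had log2 fold changes of -0.0047 and -0.09, with intervals reaching from -0.29 to 0.28 and from -0.35 to 0.16. Exons of Mkks share 944 nt with a same-strand transcript annotated as AL731706.1, so its reads may have been set aside as ambiguous. Arl6, the GTPase that recruits the BBSome to membranes, was at 32.4 and 31.1 CPM in MUT and 29.5 and 32.9 CPM in WT (0.02). Lztfl1, which restrains BBSome entry into the cilium, was at 138 and 131 CPM in MUT and 133 and 150 CPM in WT (-0.07).

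Other genes of the machinery were taken from lists by role, and none of them was called either. Of 5 kinesin-2 genes 0 passed in either direction, and Kif3c, with the smallest p, was at 3.178 and 3.396 CPM in MUT and 2.61 and 2.90 CPM in WT (a log2 fold change of 0.22, limma adjusted p = 0.493). The remaining motor genes, Kif3a, Kif3b, Kifap3 and Kif17, had log2 fold changes of 0.07, -0.03, 0.0074 and -0.06. Of 9 tested dynein-2 intermediate and light chain genes 0 were called, and the light chain gene Dynlrb1 was at 9.96 and 13.3 CPM in MUT and 9.46 and 7.62 CPM in WT (0.42, SE 0.131, limma adjusted p = 0.143). Among 19 small GTPases, kinases and regulators 0 were called. Rab3ip, the exchange factor that activates Rab8 at the cilium base, came nearest, at 107 and 102 CPM in MUT and 125 and 127 CPM in WT (-0.26, SE 0.0663, limma adjusted p = 0.0731). Of 28 transition zone and basal body genes 0 were called, and Nphp4 was at 38.8 and 42.7 CPM in MUT and 46.8 and 48.2 CPM in WT (-0.22, limma adjusted p = 0.192). The last list held 15 tested partners of IFT in the sperm tail and regulators of cilia genes, with 0 called. Trip11, which encodes the Golgi protein that anchors Ift20, was at 45.3 and 37.4 CPM in MUT and 32.9 and 34.4 CPM in WT (0.29, SE 0.0900, limma adjusted p = 0.143). Median log2 fold changes of these 5 lists were 0.01, 0.06, -0.01, 0.02 and -0.02 in the order given.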

How the data were processed

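RNA of 2 MUT and 2 WT testis libraries was made into stranded mRNA libraries, per the labels' protocols. One table, deposited by the authors, gives CPM for each gene symbol. The build mm10, HTSeq 0.6.0, TopHat2 2.0.10 and edgeR 3.8.6 appear in the submitters' processing notes without roles, and no strand setting is given in the sources used here. Every value (100%) was within 0.001 of a whole multiple of the smallest in its library, which recovered whole reads. Genes reaching 1 CPM in 2 or more libraries were tested on log2(CPM + 0.5) with limma 3.58.1 (trend, two-sided, R 4.3.3). The p-values were adjusted by Benjamini and Hochberg's method over these 15364 genes, and 115 had an adjusted p under 0.05. The pipeline was run on simulated data with a spread set by hand, and no result here rests on that run. Counts were also tested with edgeR 4.0.16 (quasi-likelihood) and DESeq2 1.42.0. Exon lengths and positions came from GENCODE for GRCm38. Genes given with values in each library are, by rule, the 6 with the smallest p in each direction, the highest per kb in each complex, and paralogs, and from each other list the gene with the smallest p. Rfx2, Rfx3, Ttc30a2, Lztfl1 and cell markers were added. The genes, lists and rules were chosen with earlier results of these data known. Alternatives changed the pseudocount, filter, scaling, variance model, count test, replicate block, GC and length correction, and library left out.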

Additional observations from a re-analysis of the deposited data

How the results depend on the processing

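Of the 37 genes 0 were called higher in all alternatives, and 0 lower in all but the fit without WT 1, which called Bbs5 (0 to 1 over the libraries left out). Their median log2 fold change of -0.0162 was 0.0122 with plain totals, and ran from -0.0437 to 0.0126 without single libraries. Over all genes, 74 higher and 41 lower calls became 7 and 4 with no filter, 35 and 18 after quantile normalization, and 5 and 2 without the variance trend. The higher calls were 122 with plain totals and 113 without the 100 most abundant genes, DESeq2 called 72 lower, and edgeR with no filter called 262 and 225. Leaving out single libraries gave 67 to 133 higher and 42 to 177 lower. The cause was not tested. The replicate block gave 57 and 31, with 0 of the 37 called. The deviations of same-numbered libraries correlated at -0.13 across genes, and crossed numbers, tried after seeing the data, gave 131 and 104. The labels say nothing of what a number marks, and the block changed no call among the 37 genes.

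Among genes given by library, signs turned for Bbs10 (0.0011) and Ttc30b (0.0227) with plain totals, Ttc30b (0.0175) without the 100 most abundant genes, Ift140 (0.0083) after quantile normalization, and Dync2h1 (-0.0201) and Ift74 (-0.0033) after GC and length correction. Without single libraries Arl6 ran from -0.053 to 0.1018, Bbs10 from -0.1197 to 0.0663, Dync2li1 from -0.0092 to 0.0711, and Ttc30b from -0.0762 to 0.0714. The median of all genes moved by 0.0274 with plain totals, 0.0216 without the 100 most abundant genes and -0.00012 after quantile normalization. Both upward shifts are larger in size than the median of the 37 genes, -0.0162. Other values kept their sign but moved with single libraries left out: Ift80 ran from 0.0094 to 0.2054, Ift27 from -0.2572 to -0.0976, Dync2h1 from 0.0471 to 0.1604, Ift20 from 0.0672 to 0.194, Bbs9 from -0.215 to -0.0922, Bbs5 from -0.3282 to -0.0726, Ift22 from -0.1757 to -0.0755 and Wdr35 from 0.0562 to 0.1508. The intervals given rest on the main fit with 2 libraries per genotype, and do not account for these changes of processing.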
